A study of Saccharomyces cerevisiae with 12 samples.

Results

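Genomic DNA was sequenced from diploid budding yeast that lacks SPT3, in log phase cells and in mothers aged for 24 h or 48 h, and each aged library was divided by the log phase library in every window of 25 kb along the genome. These are 3 of the 12 libraries of the series, chosen by their labelled genotype, with 1 library per time point. The other libraries came from wild type, rad52 and sac3 cells and are used below only to check the genotype and to order windows by an independent library. The table held 2441 windows, of which 2423 lay on the 16 nuclear chromosomes and 18 on mitochondrial DNA (mtDNA).

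All 3 groups were the labelled MEP diploid spt3 mutant, homozygous for a replacement of SPT3 by TRP1, grown in YPD (a rich glucose medium) at 30 °C. MEP is the mother enrichment program: a Cre recombinase fused to an estrogen-binding domain and driven by the daughter-specific SCW11 promoter cuts out floxed UBC9 and CDC20 in newborn daughters once β-estradiol is present, so that daughters stop dividing and the original mothers can be followed. The log phase sample was taken from the starter culture, before estradiol. The 24 h and 48 h samples were biotin-labelled mothers recovered after growth with 1 µM β-estradiol, so time in culture, estradiol and the purification of mothers all differ from log phase and cannot be told apart. With 1 library per time point no test between ages was possible. Every range given below is across windows or bins of the same libraries, and no value has a replicate check.

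SPT3 encodes a subunit of SAGA, a co-activator complex that contacts the TATA-binding protein and acetylates histones. SAGA is also known to tether DNA circles to nuclear pores, which keeps extrachromosomal ribosomal DNA circles (ERCs) in the mother at division. The study used spt3 cells as one of its mutants that do not retain ERCs. In this background the DNA of an old mother can differ from that of a young cell in the ribosomal DNA (rDNA) array on chromosome XII, in the ends of chromosomes, in copies of individual regions and in the mitochondrial genome, which is replicated apart from the nuclear chromosomes.

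The values are read signal scaled by a size factor for each library, so the median nuclear window is near 1 in every ratio and each ratio is relative to the bulk of nuclear DNA. Counting error was small: the median full-length nuclear window held 16965 reads in log phase cells, 14112 after 24 h and 9911 after 48 h, which gives a counting error of 1.14% for a 24 h ratio and 1.26% for a 48 h ratio. Intervals of this kind cover counting error only and not the spread between cultures. Across 2132 full-length windows outside chromosome XII the ratios had an SD of 0.177 at 24 h and 0.159 at 48 h, many times the counting error.

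The deletion was visible in the data. SPT3 (YDR392W, chrIV:1258696-1259709) fills 20.3% of its 5 kb bin, so a bin without the gene would keep 0.797 of the signal. This bin was chosen after the values of the 25 kb windows around the gene were seen, which are too long to show the loss. Relative to the 8 bins around it, that bin had 0.786 of the wild type signal at log phase, then 0.819 at 24 h and 0.815 at 48 h in spt3 cells. In the rad52 and sac3 libraries the same value ran from 0.947 to 1.05. All 3 spt3 libraries thus lay below the 6 libraries of the other mutants at this bin.

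The largest change was in mtDNA. Over its 18 windows the median signal was 10416 in log phase cells, 37639 after 24 h and 77748 after 48 h, and the median ratio to log phase was 4.13 at 24 h and 8.02 at 48 h. All 18 windows were past a 1.2-fold rise at both times, against 14.9% of nuclear windows at 24 h and 14.1% at 48 h, and the lowest of them stood at 1.66 and 4.17. The last 24 h of ageing brought a further median factor of 2.03, between 1.78 and 2.52 in every window. Measured per base against the median nuclear bin, mtDNA stood at 0.937 copies per haploid nuclear genome at log phase, then 3.45 at 24 h and 6.94 at 48 h, and its share of all signal went from 0.571% to 1.88% and 3.71%. These are levels of recovered, aligned DNA. More copies per cell and a larger share of cells that carry mtDNA cannot be told apart in a bulk library.

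The rise was uneven along the mitochondrial genome. The 5 kb bins solved from the overlapping windows are used here: among the 17 full-length bins the ratio ran from 1.61 to 5.48 at 24 h, with a median of 4.23, and from 4.14 to 12.9 at 48 h, with a median of 8.25. Yeast mtDNA holds several ori elements, which carry GC-rich clusters within AT-rich sequence and are known as sites where replication can start. The reference annotates 8 of them, and the bins at both ends of the range hold such an element, so 2 of these sequences are shown (reference build R64, plus strand, from RefSeq; capitals mark the runs of 15 or more bases that the pair shares, 141 bases in all).
ORI5, chrMito:82329-82600: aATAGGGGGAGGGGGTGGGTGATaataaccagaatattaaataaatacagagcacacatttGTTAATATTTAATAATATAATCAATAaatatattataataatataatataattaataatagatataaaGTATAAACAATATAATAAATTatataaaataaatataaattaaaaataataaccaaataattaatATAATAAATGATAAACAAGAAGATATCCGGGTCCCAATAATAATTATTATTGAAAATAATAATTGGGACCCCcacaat
ORI2, chrMito:32231-32501: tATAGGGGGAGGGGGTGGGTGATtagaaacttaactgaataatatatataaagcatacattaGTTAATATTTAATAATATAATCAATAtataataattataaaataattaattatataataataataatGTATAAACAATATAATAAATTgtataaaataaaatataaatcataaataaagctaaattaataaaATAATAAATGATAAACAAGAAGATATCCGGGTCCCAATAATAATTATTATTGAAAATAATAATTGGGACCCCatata

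The bin with ORI5 and the edge of COX3 (subunit III of cytochrome c oxidase), chrMito:80001-85000, had the highest signal of the full-length bins at log phase, 6358, and rose to 10224 at 24 h and 26293 at 48 h. Its ratios of 1.61 and 4.14 were the lowest of the 17. The bin with ORI2 and ORI7, chrMito:30001-35000, went from 1622 to 8893 and 20958, and its ratios of 5.48 and 12.9 were the highest. The bins with the other ori elements lay between these values, and the bin with ORI1, chrMito:1-5000, was the next lowest at 24 h, with ratios of 2.24 and 5.02.

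Of the protein genes, COX1 (subunit I of cytochrome c oxidase) spans the bins with the least signal. The bin chrMito:15001-20000 had 845 in log phase cells, 3251 after 24 h and 5748 after 48 h, ratios of 3.85 and 6.80, and the bin after it went from 809 to 3870 and 6771, ratios of 4.78 and 8.37. These 2 bins also had the highest GC content of the 17, the first of them 24.4%, against 17.1% for the whole molecule. The bins with COB (cytochrome b), chrMito:35001-45000, had ratios of 4.99 and 4.61 at 24 h and of 9.55 and 8.94 at 48 h. In the bins with the 21S rRNA gene, chrMito:55001-65000, the ratios were 4.11 and 4.30 at 24 h and 8.25 and 7.82 at 48 h. The 15S rRNA gene lay in a bin that reached 3.58 and 6.90. The highest over the lowest full-length bin was 7.86 at log phase, then 3.49 at 24 h and 4.57 at 48 h, so the bins were less unequal in the aged libraries. Base composition and fragment recovery can differ between libraries, and their part in this pattern was not tested.

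**Figure D1:**
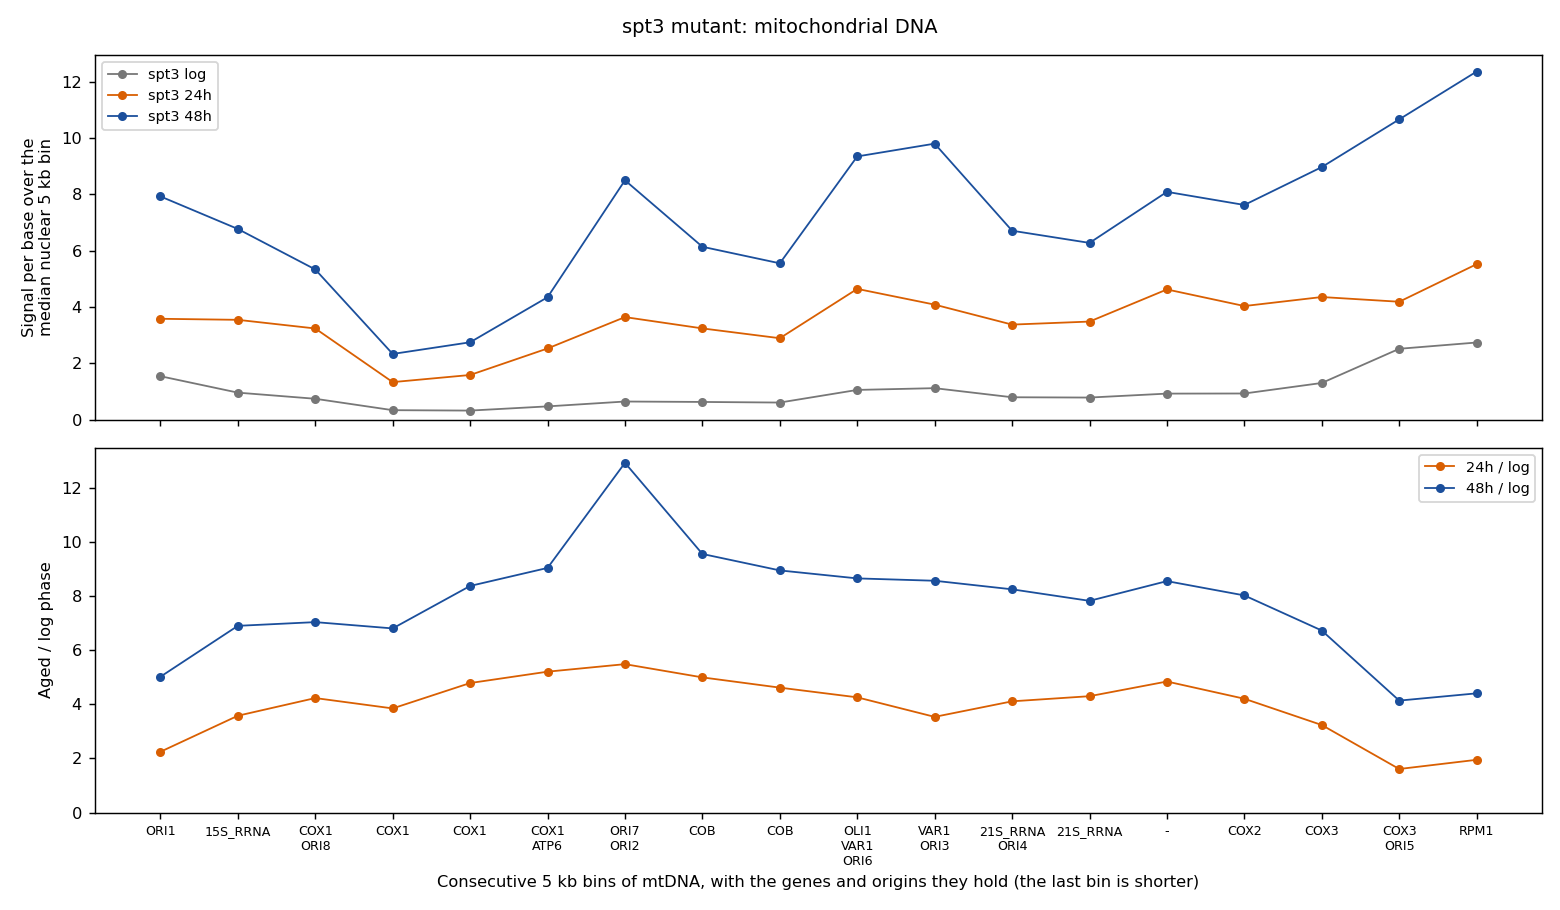
Signal per base in consecutive 5 kb bins of mtDNA relative to the median nuclear 5 kb bin (top, grey log phase, orange 24 h, blue 48 h) and the ratio of each aged library to log phase (bottom). The 48 h line lies above the 24 h line in every bin, with the lowest ratio at ORI5 (1.61 and 4.14) and the highest at ORI7 and ORI2 (5.48 and 12.9).

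The nuclear genome was not flat either. At 24 h 360 of the 2423 nuclear windows (14.9%) were at least 1.2-fold above log phase and 199 (8.21%) at least 1.2-fold below. At 48 h the same counts were 341 (14.1%) and 134 (5.53%). The 24 h and 48 h ratios share the log phase library, so any likeness between them is partly built in. Divided by each other, the 48 h and 24 h libraries differed little away from chromosome ends, centromeres and chromosome XII: over 1742 such windows the quotient had a median of 0.994 and stayed between 0.898 and 1.11.

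Whole chromosomes stayed close to 1. Chromosome I had the highest median ratio, 1.08 at 24 h and 1.09 at 48 h, followed by VI with 1.06 at both times and XII with 1.03 and 1.05. Chromosome III had the lowest, 0.908 and 0.918, followed by IX with 0.951 and 0.955 and VIII with 0.959 at both times. The remaining 10 chromosomes lay between 0.964 and 1.03. The 95% counting half-width of a single window was 2.23% at 24 h and 2.48% at 48 h, which is not the error of a chromosome median. The spread of such medians between cultures is not known. On the short chromosomes the ends weigh heavily. After the GC correction the median of I was 1.04 at 24 h and 1.01 at 48 h, below that of VI with 1.08 and 1.04, so the place of I at the top was lost. Without windows within 50 kb of an end the medians were 1.13 and 1.12 for I, 1.14 and 1.13 for VI, and 0.960 and 0.961 for III.

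**Figure D2:**
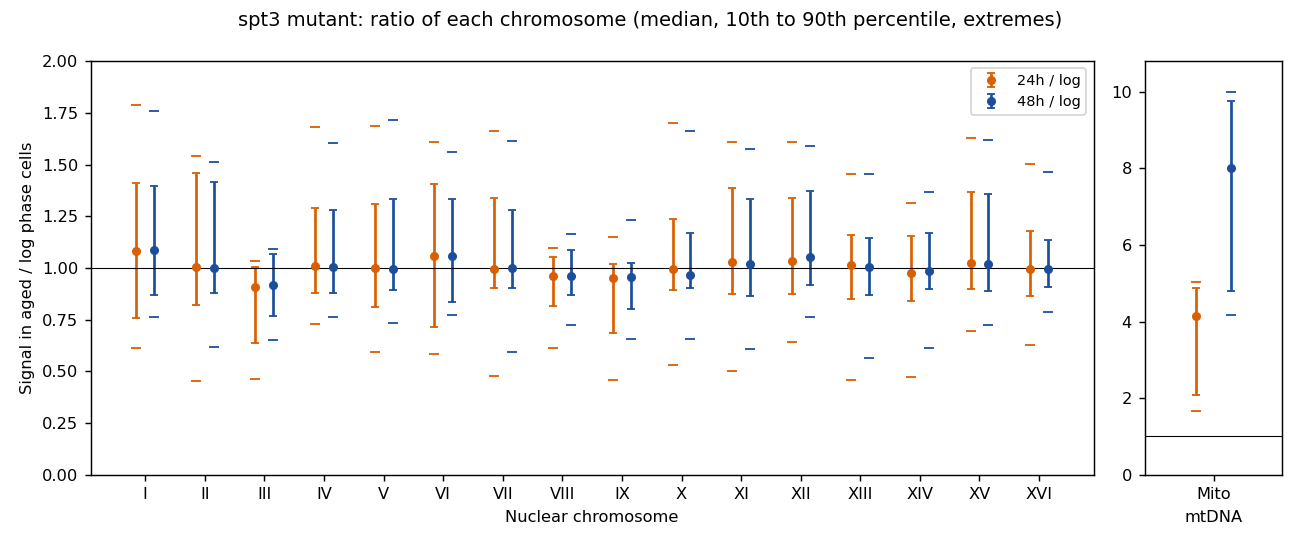
Ratio of aged over log phase signal for each nuclear chromosome (left) and mtDNA (right, on a scale of its own); points are medians over windows, bars run from the 10th to the 90th percentile and dashes mark the extremes, orange 24 h and blue 48 h. Nuclear medians lie between 0.908 and 1.09, and those of mtDNA are 4.13 and 8.02.

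Within chromosomes the high windows formed broad peaks. Outside chromosome XII the 311 windows past the rise at 24 h fell into 37 separate runs on 12 chromosomes, with a median length of 60 kb, and the 291 windows at 48 h fell into 40 runs on 13 chromosomes, with a median length of 52.5 kb. Chromosome XV had 7 runs and chromosome IV 5 at both times. Chromosomes III and VIII had none at either time, and IX had none at 24 h and 1 at 48 h. The highest window of chromosome III reached 1.03 and 1.09, and that of VIII 1.1 and 1.16. Chromosome X by contrast reached 1.70 and 1.66.

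**Figure D3:**
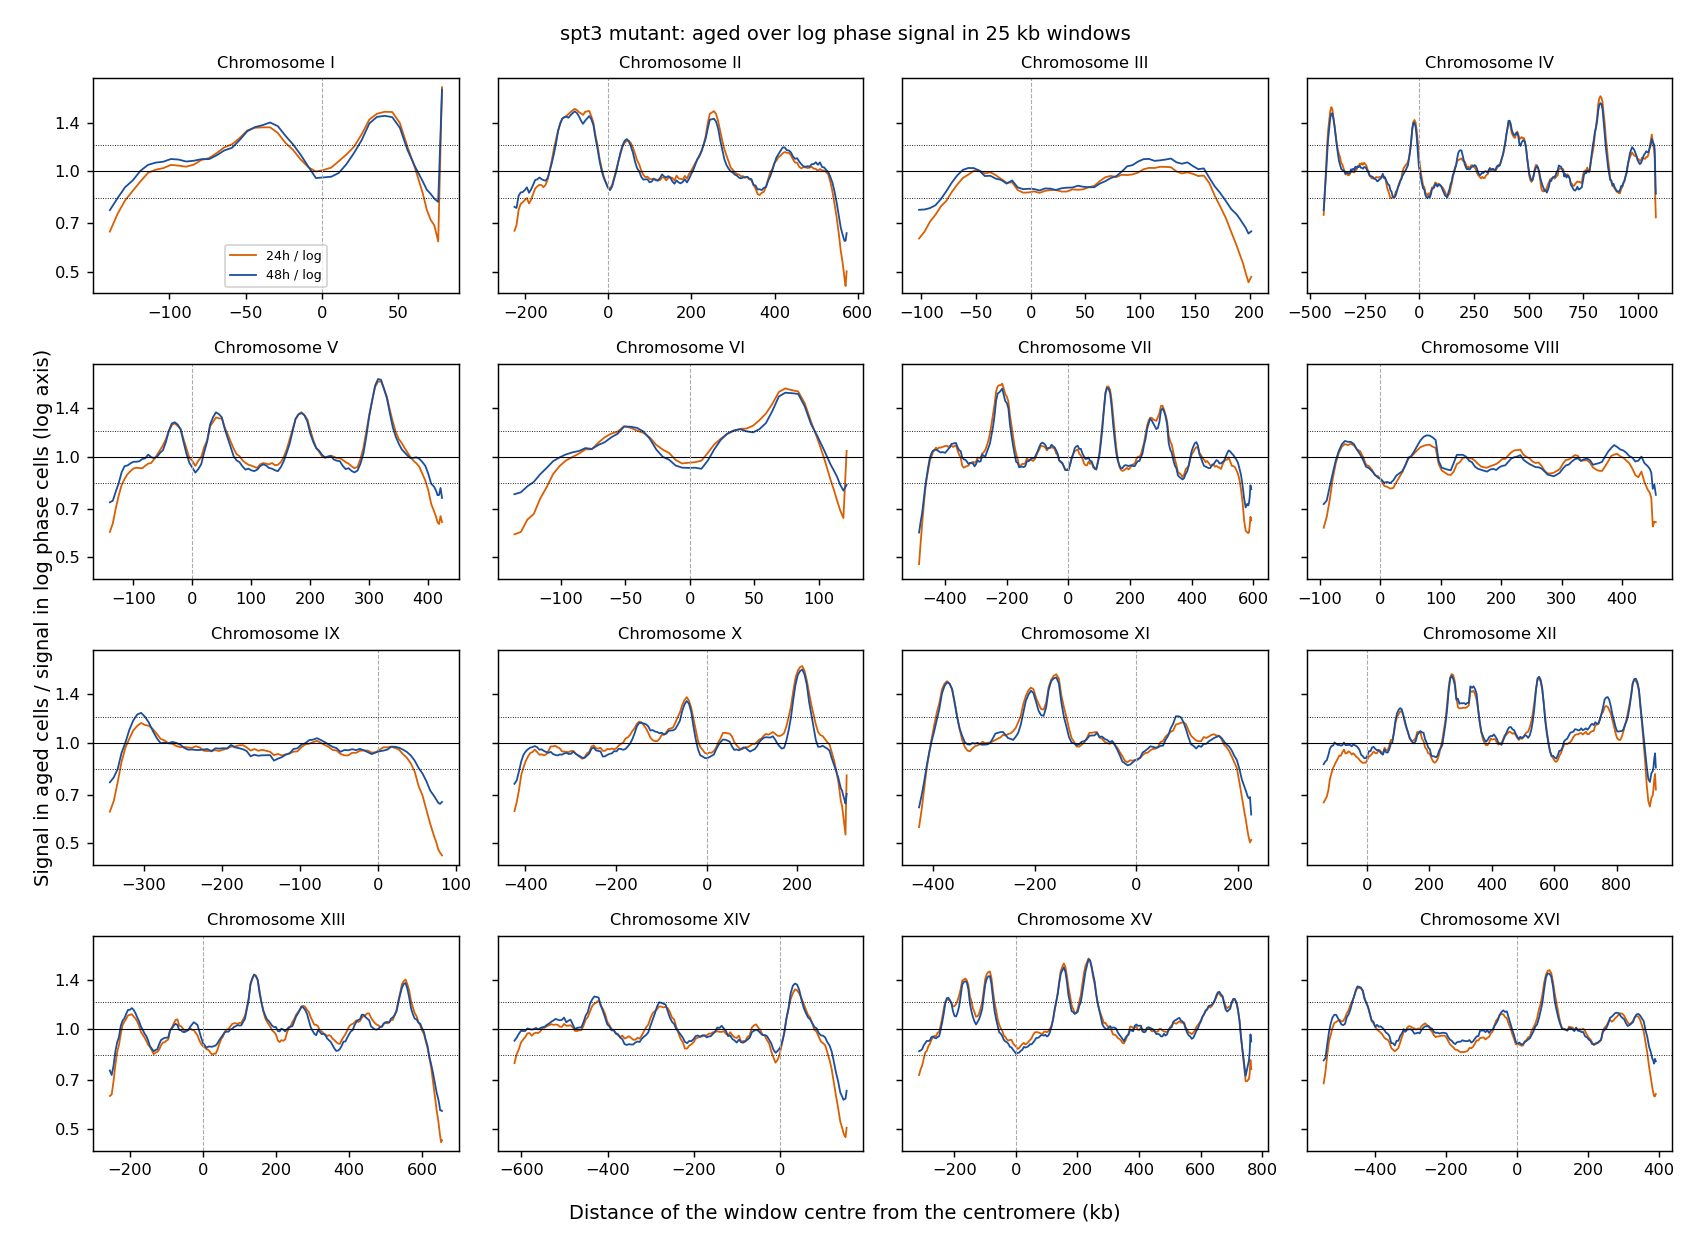
Ratio of aged over log phase signal in 25 kb windows along the 16 nuclear chromosomes, against the distance of the window centre from the centromere (dashed line); orange is 24 h, blue is 48 h, dotted lines mark 1.2-fold either way and the vertical axis is a log axis. Peaks reach 1.6 to 1.7 on many chromosomes, chromosomes III and VIII have none past the upper dotted line, and nearly all ends dip.

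The highest regions outside chromosome XII were taken as runs of at least 3 windows above the 99th percentile, 1.60 at 24 h and 1.56 at 48 h. There were 4 at 24 h and 5 at 48 h. The region chrX:625001-665000 had a median signal of 17041 in log phase cells, 28525 after 24 h and 27768 after 48 h, ratios of 1.67 and 1.63. Among its 23 protein-coding genes are STE24, a protease that processes prenylated proteins such as a-factor, ATP2, the beta subunit of the mitochondrial ATP synthase, and JHD2, a histone H3 lysine 4 demethylase.

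The region chrV:450001-490000 had 16384 at log phase, then 26983 at 24 h and 27111 at 48 h, ratios of 1.66 and 1.67. It holds 20 protein-coding genes, among them SPT15, which encodes the TATA-binding protein that Spt3 contacts, SCC4, part of the cohesin loader, and OXA1, an insertase of the mitochondrial inner membrane. On chromosome IV the region chrIV:1260001-1300000, next to the SPT3 locus, went from 15676 to 26108 and 24967, ratios of 1.66 and 1.58. Its genes include RPT3, an ATPase of the proteasome, RPB7, a subunit of RNA polymerase II, and SIZ1, a SUMO ligase.

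Chromosome VII had 2 such regions. The region chrVII:255001-295000 went from 17545 to 28844 and 27605, ratios of 1.64 and 1.57, and holds CDC20, the activator of the anaphase-promoting complex, together with NAB2, which binds poly(A) RNA, and RPS2, a protein of the small ribosomal subunit. At 48 h only, the run chrVII:610001-645000 met the rule, with 16250 in log phase cells, 26481 after 24 h and 26230 after 48 h, ratios of 1.63 and 1.60. It holds SPT4, a transcription elongation factor, ERG25 of sterol synthesis and ADE6 of purine synthesis. All of these regions lay 80.8 kb or more from a chromosome end. In each the level of both aged libraries stood well above that of the log phase library. This follows largely from choosing the regions by their ratio to that library.

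The windows that rose were mostly high at log phase already. Among full-length windows away from ends and outside chromosome XII, the 301 past the rise at 24 h had a median signal of 16136 at log phase, against 12743 over all 1967. To avoid the log phase library that enters the ratio, these 1967 windows were ordered by the wild type log phase signal. They were split into 10 groups of near-equal size. In the lowest group, 197 windows, the median spt3 ratio was 0.970 at 24 h and 0.959 at 48 h and no window was past the rise. The ratio was 0.987 and 0.986 in group 5 and 1.07 and 1.08 in group 8. In the highest group it was 1.315 at 24 h and 1.30 at 48 h, and 75.1% and 73.1% of windows were past the rise. Over the 1967 windows Spearman's rho between the wild type signal and the ratio reached 0.566 at 24 h and 0.628 at 48 h. The windows overlap and share base composition, so this describes the libraries and carries no test.

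Base composition moved with the ratio as well, but less. Split the same way by GC content, the lowest group had median ratios of 0.970 and 0.968, and the highest group 1.08 and 1.09. Windows past the rise at 24 h had a median GC content of 38.5%, against 38.2% over all 1967. Of the same windows 48.2% held no annotated replication origin, against 43.7% over all, and they held a median of 13 protein-coding genes, against 14. Over all 2423 nuclear windows a correction for GC content lowered the count past the rise from 360 to 356 at 24 h and from 341 to 324 at 48 h. The part of any of these features in the peaks was not tested.

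The ends of chromosomes had lost signal relative to the rest of the nuclear genome. Over the 256 windows that lie wholly within 50 kb of an end, the median signal was 11465 at log phase, then 8477 at 24 h and 9511 at 48 h, and the median ratio was 0.729 at 24 h and 0.826 at 48 h. Of these windows 185 at 24 h and 133 at 48 h were past a 1.2-fold fall, out of 199 and 134 such windows in the nuclear genome. Of the 32 ends, 30 had a median below 1 at both times, and 31 were lower at 24 h than at 48 h. At 24 h 25 ends were past a 1.2-fold fall and at 48 h 17.

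Telomeres of budding yeast are irregular TG1-3 repeats that telomerase maintains, and the regions inside them carry Y' elements and gene families that differ between strains. The right end of chromosome XIV was lowest at 24 h and the right end of IV highest, so the last 100 bases of both in the reference are shown (build R64, plus strand, from RefSeq; capitals mark bases of a terminal TG1-3 run of at least 5 repeats, which at XIV is 295 bases long and so fills the stretch shown). Such a run closes 22 of the 32 reference ends. Reads from repeats of this kind cannot be placed at a single end.
XIV right end, chrXIV:784234-784333: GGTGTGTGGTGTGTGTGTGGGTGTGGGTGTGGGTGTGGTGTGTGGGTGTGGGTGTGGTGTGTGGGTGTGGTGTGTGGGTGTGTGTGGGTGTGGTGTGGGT
IV right end, chrIV:1531834-1531933: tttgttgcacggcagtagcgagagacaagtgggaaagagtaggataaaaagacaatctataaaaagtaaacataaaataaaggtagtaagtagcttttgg

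The right end of XIV had a median window signal of 8465 in log phase cells, 4691 after 24 h and 5785 after 48 h, ratios of 0.515 and 0.647. The right end of IX had 12346, 7933 and 10022, ratios of 0.547 and 0.705, and the right end of XIII had 9989, 5601 and 6417, ratios of 0.548 and 0.628. At the other extreme the right end of IV rose from 16285 to 18897 and 19097, ratios of 1.16 and 1.18, and the left end of IV from 13533 to 14806 and 14038, ratios of 1.09 and 1.03. The right end of I came next, with 0.939 and 0.982. Only the ends of chromosome IV thus had medians above 1. A window of only 218 bases closes chromosome I, with 53, 80 and 55 reads, and its ratios of 1.79 and 1.76 are the highest of any nuclear window but rest on those few reads.

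The fall was graded with distance from the end. In 5 kb bins of chromosomes other than XII, the first 5 kb had a median ratio of 0.611 at 24 h and 0.791 at 48 h, and all 30 ends were below 1 at 24 h and 29 at 48 h. The next bin, from 5 to 10 kb, was lowest, at 0.564 and 0.700. The ratio was 0.761 and 0.805 from 20 to 25 kb, 0.965 and 0.996 from 35 to 40 kb, and 1.02 and 1.06 from 50 to 55 kb. The level in the 5 to 10 kb bin, relative to the median nuclear bin, was 1.06 at log phase, then 0.617 at 24 h and 0.764 at 48 h, so the aged libraries were below the median there and the log phase library was not.

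**Figure D4:**
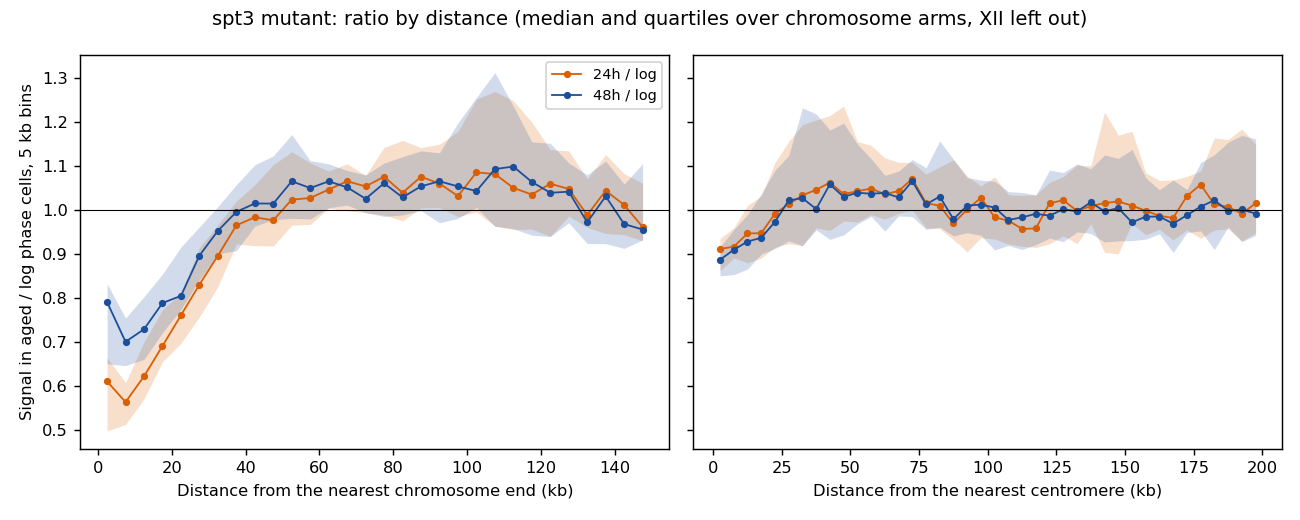
Ratio of aged over log phase signal in 5 kb bins against the distance from the nearest chromosome end (left) and from the centromere (right); points are medians and shaded bands the quartiles over the ends or arms of chromosomes other than XII, orange 24 h and blue 48 h. The ratio falls to 0.564 and 0.700 near ends and to 0.911 and 0.887 beside centromeres.

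The lowest regions of the nuclear genome by the percentile rule were all at right ends: 5 at 24 h and 3 at 48 h. The windows at right ends become shorter towards the tip, with 10 windows per right end against 6 per left end, so the rule of at least 3 windows is met more easily there and the signals given below are lowered by the short windows. The left end of VII reached 0.477 and 0.594 in its outermost window, chrVII:1-25000. The region chrXIII:905001-924431 had 5288 in log phase cells, 2472 after 24 h and 3009 after 48 h, ratios of 0.469 and 0.569. It holds ADH6, an alcohol dehydrogenase, FET4, a low-affinity iron transporter, and PAU19, one of the seripauperin cell wall family. The region chrII:795001-813184 went from 5291 to 2468 and 3271, ratios of 0.488 and 0.625, and holds the maltose genes MAL31, MAL32 and MAL33. The regions at the right ends of IX, III and XIV had ratios of 0.474, 0.482 and 0.488 at 24 h and 0.664, 0.660 and 0.617 at 48 h, and hold PAU15, PAU3 and PAU6.

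Gene families known from subtelomeres were read from the same windows. They were chosen after their values were seen, and a gene takes the median of the windows that hold it whole. Over all 6002 nuclear protein-coding genes the median was 1.00 at both times, 396 (6.6%) were past the fall and 913 (15.2%) past the rise at 24 h, and 249 (4.15%) and 865 (14.4%) at 48 h. Of 24 PAU genes, 19 within 50 kb of an end, 18 were past the fall at 24 h and 16 at 48 h and 2 and 3 past the rise, with medians of 0.668 and 0.777. Of 12 COS genes, which encode endosomal proteins, 11 and 10 were past it, with medians of 0.618 and 0.727. All 6 MAL genes were, with medians of 0.565 and 0.684. Of the 16 HXT hexose transporter genes, 8 of them near an end, 6 and 4 were. The other families counted were small. Of the 5 FLO flocculation genes 1 was past the fall and 1 past the rise at each time, with medians of 0.905 and 0.947, and neither of the 2 DAN cell wall genes was past 1.2-fold, with medians of 0.952 and 0.914. Of the 5 AAD genes 3 and 2 were past the fall, of the 4 SNO genes 2 at each time and of the 3 SNZ genes 1 at each time. Of all windows wholly within 50 kb of an end 72.3% at 24 h and 52.0% at 48 h were past the fall. The share over all genes is therefore not the background for genes near an end. Neighbouring genes share windows, so these counts are not independent of each other.

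Centromeres showed a smaller dip. Over 240 windows that touch the 25 kb on either side of a centromere the median signal was 13735 at log phase, then 12727 at 24 h and 12947 at 48 h, with median ratios of 0.948 and 0.949. The ratio of the summed signal was 1.00 at both times. No summed ratio over all nuclear windows was computed here, so this value was not set against the rest of the genome. Of the 240 windows 25 at 24 h and 26 at 48 h were past the rise, against 14.9% and 14.1% of all nuclear windows, and 7 and 0 past the fall, against 8.21% and 5.53%. In 5 kb bins the dip was narrow, with 0.911 at 24 h and 0.887 at 48 h in the bins within 5 kb of the centromere, 28 and 29 of 30 bins below 1, and a return to 1.01 and 1.02 at 25 to 30 kb.

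A budding yeast centromere is a point of little over 100 bases with a short element CDEI, an AT-rich CDEII and a CDEIII on which the kinetochore assembles. CEN8 and CEN1 lie in the regions with the lowest and highest medians at 24 h (build R64, from RefSeq, strand as annotated; capitals mark the annotated CDEI and CDEIII).
CEN8, chrVIII:105586-105703, minus strand: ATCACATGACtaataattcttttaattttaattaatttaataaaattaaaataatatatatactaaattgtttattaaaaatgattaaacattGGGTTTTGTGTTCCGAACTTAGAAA
CEN1, chrI:151465-151582, plus strand: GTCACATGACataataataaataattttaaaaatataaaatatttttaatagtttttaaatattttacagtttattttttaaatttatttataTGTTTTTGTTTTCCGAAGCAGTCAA

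The region of CEN8 went from 13417 at log phase to 11591 at 24 h and 11808 at 48 h, ratios of 0.876 and 0.884. Those of III and XIII were close to it, with 0.878 and 0.889 and with 0.886 and 0.906. The region of CEN1 rose from 16413 to 19474 and 18645, ratios of 1.16 and 1.14, followed by V with 1.12 and 1.11 and IV with 1.11 and 1.04. Of the 16 centromere regions 11 had a median below 1 at both times, and none was past 1.2-fold either way. The centromere windows of I, IV and V reach into peaks, as the plot along chromosomes shows, with highest windows of 1.49, 1.43 and 1.28 at 24 h.

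Chromosome XII carries the rDNA, a tandem array of a unit of 9137 bases with the 35S precursor gene and the 5S gene, of which the reference holds 2 copies. In the window chrXII:445001-470000, which spans both copies, the signal was 730543 in log phase cells, 930324 after 24 h and 960641 after 48 h. Set against the median nuclear window this equals 156, 202 and 207 units per haploid genome, a rise of 1.29 and 1.33. Over the 13 windows that touch the interval taken as rDNA, the array and the repeats on its right, the median ratio was 1.28 at 24 h and 1.32 at 48 h, with ranges of 1.27 to 1.44 and 1.31 to 1.48. All 13 were past the 1.2-fold rise, and 1 of them, chrXII:425001-450000, holds only the last base before the array and stood at 1.38 and 1.35. Chromosomal array copies and circles have the same sequence and cannot be told apart by this signal.

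The 5S gene links the array with the sequence to its right, where further copies stand between the ASP3 genes for asparaginase, so it is shown here (build R64, plus strand, from RefSeq).
RDN5-1, chrXII:459676-459796: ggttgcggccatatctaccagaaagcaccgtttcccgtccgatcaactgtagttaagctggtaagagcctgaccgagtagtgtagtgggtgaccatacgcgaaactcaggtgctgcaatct
Counted from its 5′ end, RDN5-6 at the right edge is identical, and RDN5-2 inside the array and RDN5-3, RDN5-4 and RDN5-5 to its right differ from it by A118G and are annotated as 119 bases long, against 121.

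The windows over these repeats had higher ratios than those over the array at 24 h and at 48 h. The windows that start from 470001 to 485001 of chromosome XII had signals of 30396 to 30870 at log phase, then 42634 to 44196 at 24 h and 44104 to 45542 at 48 h, ratios of 1.4 to 1.44 and of 1.45 to 1.48. Between 22.3% and 25.2% of the positions in 3 of their 5 kb bins begin a stretch of 75 bases found in the array, so reads from the array and from these bins cannot be told apart there. Right of the array the bin chrXII:490001-495000, with 7.36% such positions, had 14460, 20277 and 21687, a level of 5.72 times the median bin at log phase and ratios of 1.4 and 1.5. The next bins have no such positions, and their ratios were 1.49 at both times, 1.34 at both times and then 1.14 and 1.16, reaching 1.00 at both times in the bin 30 kb beyond the edge.

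On the left side a peak lay beside the array. The window chrXII:410001-435000, with PDC5, a pyruvate decarboxylase, RRN5, a factor for RNA polymerase I, and SLX4, a subunit of a structure-specific nuclease, went from 16748 to 26954 and 26647, ratios of 1.61 and 1.59. These were the highest values of chromosome XII. Together with the array and its right side, the windows past the rise at both times formed 1 run of 125 kb, from 395001 to 520000. The whole left arm, 86 windows with this peak and the window shared with the rDNA interval, had medians of 0.943 and 0.985.

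The right arm beyond the rDNA, called ChrXIIr, had a median signal of 13814 in log phase cells, 14210 after 24 h and 14343 after 48 h over 118 windows, and its median ratio was 1.06 at 24 h and 1.09 at 48 h. Of these windows 26 were past the rise at 24 h and 26 at 48 h, which is 22.0% each time against 14.9% and 14.1% of all nuclear windows, and 9 and 4 were past the fall. In steps of 100 kb from the rDNA the median was 1.03 and 1.04, then 1.07 and 1.08, 0.990 and 1.00, 1.07 and 1.1, 1.2 and 1.21, and 0.840 and 0.936 in the last step, which holds the chromosome end. The values did not move one way with distance: 3 separate peaks stood on the arm.

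The window chrXII:690001-715000, with MCM5, a subunit of the replicative helicase, and MEC3, of a DNA damage checkpoint clamp, went from 16572 to 25951 and 26199, ratios of 1.57 and 1.58. The window chrXII:905001-930000, with SFP1, an activator of ribosomal protein genes, and BDF1, a bromodomain protein, went from 14909 to 19248 and 20400, ratios of 1.29 and 1.37. The window chrXII:995001-1020000, with CNA1, a catalytic subunit of calcineurin, and IMD3 of guanine nucleotide synthesis, went from 15565 to 24073 and 24213, ratios of 1.55 and 1.56. Peaks of this size were also present on chromosomes other than XII, as given above, and no test of the arm against them was possible.

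**Figure D5:**
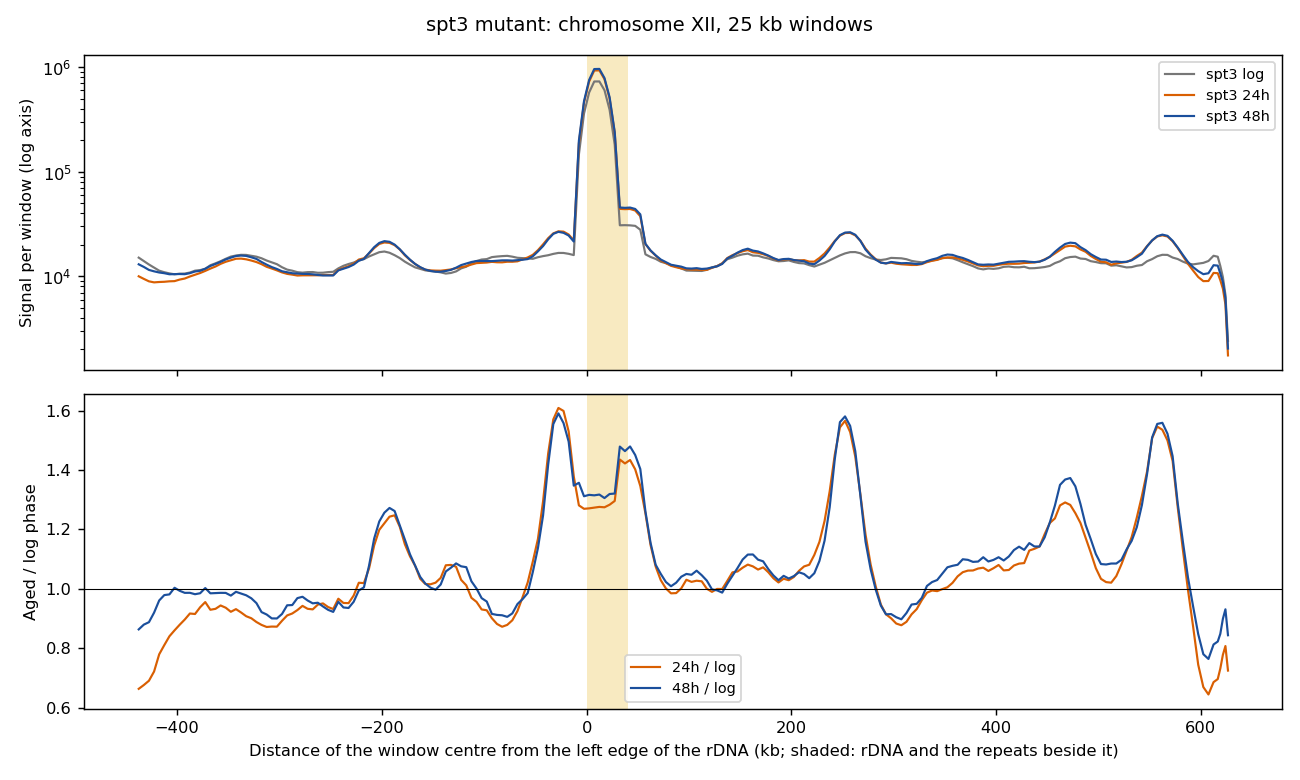
Signal per 25 kb window on chromosome XII (top, log axis; grey log phase, orange 24 h, blue 48 h) and the ratio of the aged libraries to log phase (bottom), against the distance from the left edge of the rDNA, which is shaded with the repeats beside it. Windows over the array stand at 1.27 to 1.36, peaks of 1.61, 1.57 and 1.55 at 24 h stand to its left and along the right arm, and the chromosome ends dip.

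Windows with a Ty element or LTR did not stand apart from other windows. A repeat fills only part of a 25 kb window, and the treatment of reads with several matches is not given. A change of the repeats themselves was therefore not measured. The 266 nuclear windows with a Ty element, the retrotransposons of yeast, had median ratios of 1.03 and 1.02, the 545 with an LTR and no Ty 0.972 at both times, and the 1612 with neither 0.998 and 1.00. Of the tandem gene arrays, the 7 windows with the ENA genes, which encode sodium pumps, went from a median of 13218 to 12020 and 11966, ratios of 0.908 and 0.910. The 5 windows with the CUP1 genes, which encode copper metallothionein, had 21740, 19438 and 20002, ratios of 0.9 and 0.923. No window of either array was past 1.2-fold.

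Genes of the pathways around SPT3 were read from the same windows, so their values give the relative DNA signal of the region and not the expression of the gene. Whether they reflect a change in copies was not tested. Of the 19 SAGA subunits 3 were past the rise at both times and none past the fall, near the 15.2% and 14.4% of all nuclear genes, with list medians of 0.987 and 0.997. These were TAF6, a histone-fold subunit, with ratios of 1.52 and 1.45, SPT8, which acts with Spt3 on the TATA-binding protein, with 1.22 and 1.26, and the deleted SPT3 locus itself, whose windows are mostly neighbouring sequence, with 1.36 and 1.35. The acetyltransferase GCN5 stood at 0.951 and 0.967. None of the 11 genes of TREX-2, an mRNA export complex at the pore, and the nuclear basket was past 1.2-fold either way, with medians of 1.03 and 1.05.

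Of the 15 genes for rDNA stability and silencing 5 were past the rise at 24 h and 6 at 48 h, against 15.2% and 14.4% of all genes, with medians of 1.04 and 1.05. SIR3, a silencing protein of telomeres and mating loci, had the highest values, 1.47 and 1.48, followed by CDC14, the phosphatase held in the nucleolus, with 1.4 and 1.32. The deacetylase gene SIR2 stood at 1.02 and 0.980 and the replication fork barrier gene FOB1 at 1.03 and 1.02. Of the 8 core histone genes the pair HTA1 and HTB1, which share a promoter, was past the rise with 1.26 and 1.22 for both. Of the 12 nuclear genes for mtDNA maintenance, 3 were past it at 24 h and 2 at 48 h, against the same 15.2% and 14.4%. ABF2, which packs mtDNA, stood at 1.41 at both times, NTG1, a DNA glycosylase, at 1.22 and 1.28, and the mtDNA polymerase gene MIP1 at 1.12 at both times. The list median was 1.01 and 1.02, against a rise of mtDNA itself by 4.13 and 8.02.

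The loci that the mother enrichment program uses went different ways. CDC20 stood at 1.57 and 1.5, inside the chromosome VII peak, whereas UBC9 stood at 0.849 and 0.842 and SCW11 at 1.07 at both times. The HO locus, where the strain carries the Cre cassette in place of the gene, stood at 1.51 and 1.44. The windows of CDC20 went from a median signal of 17929 to 28216 and 26947, and those of UBC9 from 12579 to 10676 and 10524. The windows are far longer than these genes, so the values are those of the surrounding 25 kb.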

How the data were processed

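The authors deposited 1 table of read signal in windows of 25 kb placed every 5 kb, with a column for each of the 12 libraries of single-end 75 base reads. The deposited signal is a read count per window multiplied by a size factor for each library. The methods name Bowtie 2 and the R64-1-1 build, and the submitters' processing notes name Trim Galore 0.6.6, HISAT2 2.1.0 and R64, so the aligner used is uncertain; the treatment of reads with several matches is not given in the sources used here. The methods describe leaving out Ty, LTR, mtDNA, ENA and CUP1 sequence, but their windows are in the table and were used. No column of the table was left unused.

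All values were computed in Python 3.11.15 with numpy 2.4.6 and pandas 2.3.3. The signal of 1 read was searched for in the 60 smallest values of each library, and in the spt3 libraries 100% of values were whole multiples of it within 0.1 of a read. It was used only for depth, which was 9421270, 8596541 and 6184977 reads at log phase, 24 h and 48 h in windows that do not overlap. The 5 kb bins were solved from overlapping windows, with the 98 bins of chromosome XII left of 490 kb left out because 9 to 30 of them came out negative. The median bin held 3347, 2729 and 1926 reads, a counting error of 1.73% to 2.28%.

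Named regions were the 5 highest and 5 lowest runs of at least 3 windows beyond the 99th or 1st percentile outside chromosome XII and mtDNA, the 3 highest and 3 lowest ends and centromeres, every chromosome, and gene lists. Members and lists were chosen with earlier results of these data known. The steps were checked on simulated reads. Alternatives were summed signals, re-centring, leaving out repeat windows, a correction for GC content by a running median of 201 windows, and windows that do not overlap.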

Additional observations from a re-analysis of the deposited data

How the results depend on the processing

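With 1 library per time point, no replicate could be left out. No paired analysis was possible because each group has 1 library. Every alternative was compared with the 95% counting interval of a full-length window or, for counts, with a factor of 1.5. With summed signals the 24 h and 48 h ratios of ChrXIIr were 1.1 and 1.13 and those of mtDNA 3.66 and 7.44. Those of chromosome ends were 0.788 and 0.872 and those of centromere regions 1.005 and 1.004, which for centromeres is the other side of 1. No summed ratio over all nuclear windows is given, so 1 is not a known baseline for these. Re-centring divided each library by its median window signal outside chromosome XII and mtDNA. Those medians were 12612, 12317 and 12349 in order of age, so every ratio rose. The median ratio of these windows was already 0.995 at both times, so re-centring is not a shift of the median ratio to 1. With re-centring the 24 h ratios were 1.09 for ChrXIIr, 1.31 for the rDNA, 4.23 for mtDNA, 0.747 for ends and 0.970 for centromere regions. With windows that do not overlap mtDNA stood at 3.73 and 7.28. The rDNA then had 3 windows, and its median of 1.38 at 24 h was that of chrXII:425001-450000. That window holds only the last base before the array. The window over the array, chrXII:450001-475000, stood at 1.28 at 24 h. Without windows that touch repeats, 2 rDNA windows remained, at 1.34 and 1.38. Past the rise were 238 and 227 of 1604 nuclear windows, against 360 and 341 of 2423, so the lower counts go with fewer windows. The share hardly changed: of the 1612 windows with no Ty element or LTR it was 14.8% and 14.1%, against 14.9% and 14.1% of all. With the GC correction the rDNA stood at 1.24 at 48 h. All other values of these region ratios stayed within their interval, and the other counts within the factor. Of the chromosome medians, re-centring moved all 16 at 24 h and none at 48 h past the interval, to between 0.930 and 1.11 at 24 h. As the factor is the same for every chromosome, this outcome was fixed by its size and carries nothing about single chromosomes. The GC correction moved the median of chromosome I at both times, to 1.04 and 1.01. The SPT3 locus in 25 kb windows stood at 0.953, 0.974 and 0.992 of its surroundings, and in the 5 kb bin, an alternative chosen after seeing the data, at 0.786, 0.819 and 0.815. The alternatives change which windows enter or how they are weighted or scaled, and other causes were not tested.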
